A study of Arabidopsis thaliana with 24 samples.

Results

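The starch breakdown genes are 10 loci listed with the leaf pathway that turns starch granules into maltose and glucose. They are SEX1 (AT1G10760, or GWD1), PWD (AT5G26570), SEX4 (AT3G52180), BAM1 (AT3G23920), BAM3 (AT4G17090), BAM5 (AT4G15210), ISA3 (AT4G09020), AMY3 (AT1G69830), DPE1 (AT5G64860) and DPE2 (AT2G40840). BAM5, unlike BAM1 and BAM3, encodes a β-amylase outside the chloroplast, so its level is not one of granule breakdown there. The 10 genes were chosen by locus, as genes listed for starch breakdown, from the 37686 loci of the deposited tables. No measured value enters that rule, but earlier results of these data were known when the genes were chosen. All 10 were found, and each reached the expression minimum of 1 TPM (an abundance scaled to gene length and to the same total in each library) in at least 2 libraries. Whole blades of Arabidopsis thaliana were sampled, of the first rosette leaf pair of seedlings 12 d old, in the wild type Col-0 (WT) and in coi1-2, a mutant of the jasmonate receptor gene COI1 represented by this 1 allele. Both genotypes had been raised on 1/2 MS plates with 1% sucrose at 22 °C, in a cycle of 16 h light and 8 h dark. The detached blades were then kept at 22 °C in 24 h light on B5 medium without sugar, and were frozen when cut (t0), 10 or 30 min later, or after 1, 2, 4, 8 or 12 h. Of the 24 libraries, 8 were WT, 1 at each time, and 16 were coi1, 2 at each time. A blade holds many cell types, so fewer cells of a type and less RNA per cell cannot be told apart. Time after detachment also cannot be told apart from time of day, the change of medium and the change to constant light.

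Leaves store part of the carbon fixed by day as starch in chloroplasts and break it down at night. Glucan dikinases first put phosphate on the granule surface and a phosphatase takes it off again, which opens the granule to β-amylases and debranching enzymes. Maltose and short glucans are the products, and disproportionating enzymes inside and outside the chloroplast work them up. In Arabidopsis many transcripts of the pathway cycle over the day and peak around dusk.

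Several libraries stood apart before any test. The coi1 30 min replicate 2 library was most like coi1 1 h replicate 1 (Pearson r = 0.908 over 13811 genes) and less like its own replicate (0.815, against 0.919 to 0.986 for the other 7 pairs). It held the lowest coi1 level of 8 of the 10 genes, all but BAM1 and BAM3. The WT 2 h library was most like WT 12 h (0.981) and not like the 2 h libraries of coi1. The gene mutated in coi1 was checked first. COI1 in WT, in the order of the times, was 15.4, 13.8, 10.7, 8.65, 25.9, 16.7, 22.6 and 23.7 TPM. In coi1 replicate 1 it was 14.5, 17.5, 13.1, 19.8, 17.5, 13.99, 21.5 and 22.7 TPM, and in replicate 2 14.3, 15.5, 13.7, 16.8, 15.7, 14.2, 22.4 and 23.3 TPM. The genotypes overlapped, and their COI1 levels differed by log2 0.06 ± 0.11 (SE; limma adjusted p = 0.737), but an allele with an amino acid substitution is not checked by its transcript level. The labels were checked instead by 8 jasmonate response genes, all 8 of which were lower in coi1 (median log2 -3.04). Leaf mesophyll markers summed to between 31420 and 64790 TPM, and shoot meristem markers to at most 0.13 TPM. Depth is unknown for TPM, so no counting interval can be given. The labels do not say whether replicates were separate cultures, so a p-value covers the variation between these libraries only, which may be technical.

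In coi1 leaves 5 of the 10 transcripts for starch breakdown were higher at 8 and 12 h after detachment than at 1 and 2 h. For ISA3, SEX4, PWD, BAM3 and DPE2 the differences were log2 4.32 ± 0.95, 2.93 ± 0.72, 2.49 ± 0.92, 1.71 ± 0.24 and 1.31 ± 0.42 (SE; limma adjusted p = 0.00418, 0.00752, 0.0484, 0.00029 and 0.0287). The comparison does not place these levels against t0: BAM3 was already above t0 at 1 and 2 h, and PWD at 8 and 12 h differed from t0 by log2 0.27 and -0.09, neither called (limma adjusted p = 0.928 and 0.977). BAM5 was lower at the late times, by log2 -0.73 ± 0.19 (adjusted p = 0.0105). Thus 5 of the 10 genes were higher and 1 lower, while 44.4% of all 19323 genes were called and 32.6% were higher. The median of the 10 genes was log2 1.44, beside 0.18 over all genes. In the same comparison 10 of 18 starch synthesis genes were higher and 1 lower, with a median of log2 1.15. SEX1 (0.95 ± 0.84), BAM1 (0.99 ± 0.40), AMY3 (0.32 ± 0.50) and DPE1 (1.56 ± 0.91) did not pass the test. The calls of PWD and DPE2 were lost without coi1 1 h replicate 1, 2 h replicate 1 or any single 8 or 12 h library (adjusted p from 0.0984 to 0.16 for PWD and from 0.0556 to 0.099 for DPE2), and both were lost after rescaling by median-of-ratios factors (0.0676 and 0.0521), PWD also with a pseudocount of 0.1 (0.0543), no filter (0.0642) or a replicate block (0.0619). The gap between the 2 coi1 30 min libraries, which are in neither side of this comparison, widens the common spread. Without replicate 2 of 30 min the differences of SEX1 and DPE1 had the same size, log2 0.95 and 1.56, with a smaller spread. Whether these genes pass the test therefore depends on that library.

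**Figure D1:**
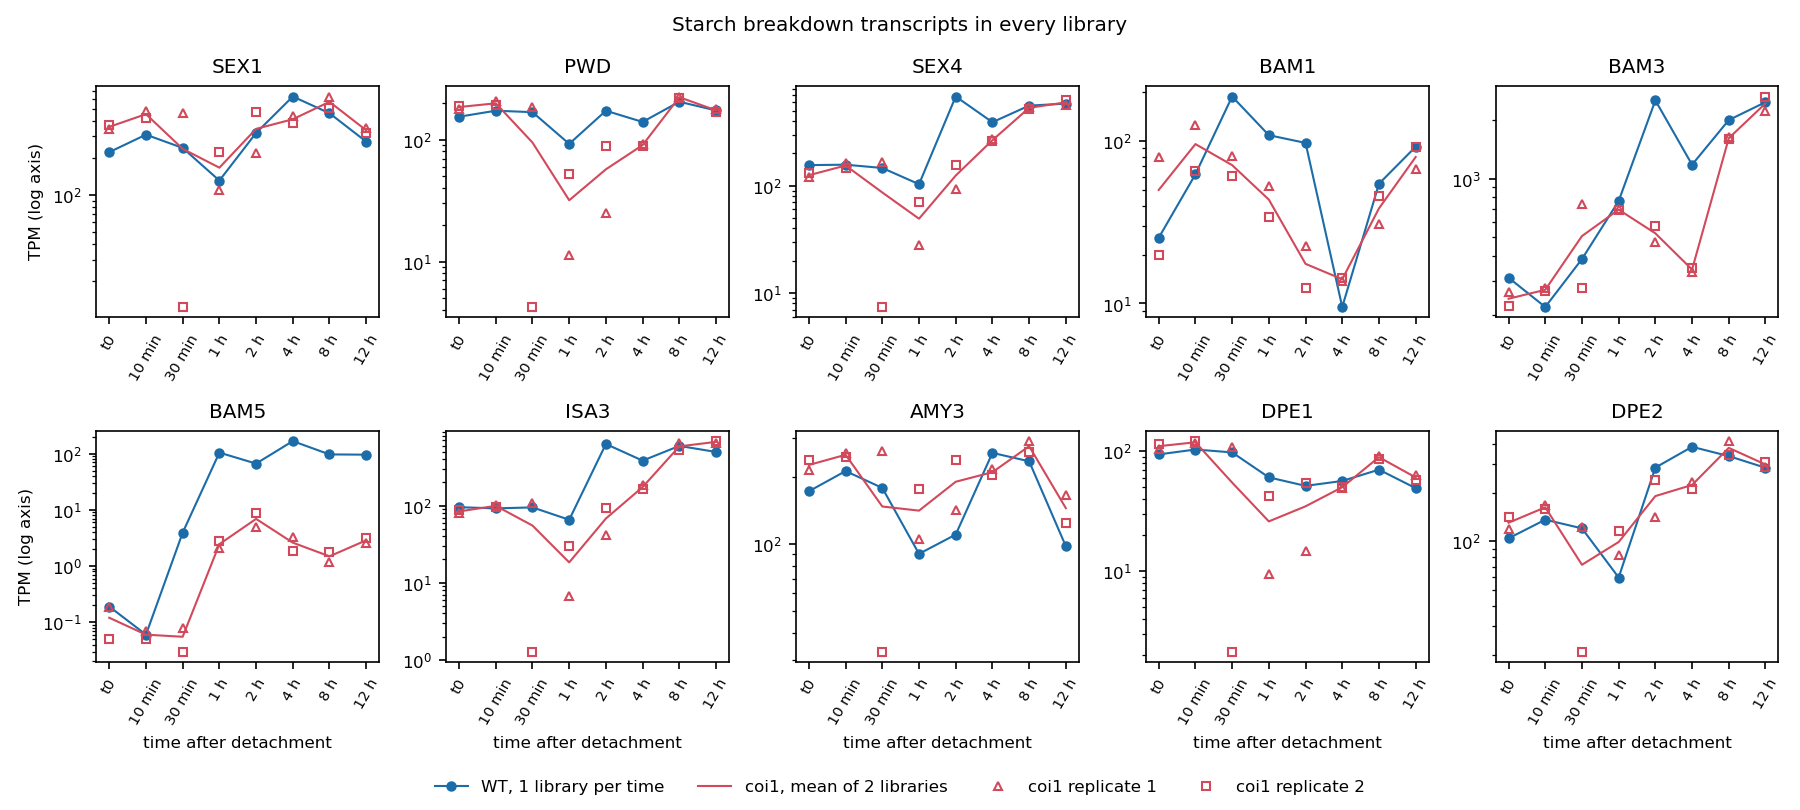
TPM of the 10 genes (log axis) against time after detachment in every library, with 1 WT library (blue line) and 2 coi1 libraries (triangles and squares, red line for their mean) at each time. Coi1 30 min replicate 2 lies far below its partner for PWD, SEX4, ISA3 and DPE1, and BAM5 reaches 168 TPM in WT and at most 8.97 TPM in coi1.

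Against t0, calls in coi1 were few. No gene of the 10 was called at 10 min, when 0.533% of all genes were, or at 30 min, when 9.23% were. At an unadjusted limma p below 0.05 there were 0 of them at 10 min and 1 at 30 min (BAM3, adjusted p = 0.114). Of all 19323 genes 2209 and 5794 were below that unadjusted threshold. BAM3 and BAM5 were higher at 1 h, when 31.2% of all genes were called, at 2 h (25.6%), at 8 h (14.6%) and at 12 h (21.7%). Only BAM5 was higher at 4 h, when 14% of all genes were called. None of the 10 was called lower than at t0 at any time in this fit of 16 libraries. Over all 8 times together an F test called 6 of the 10, SEX4, BAM1, BAM3, BAM5, ISA3 and DPE2, beside 58.9% of all genes, so the share of the 10 was near that of all genes. Of 22 alternatives the call of SEX4 was lost in 16, that of DPE2 in 9 and that of ISA3 in 7, and leaving out single libraries moved the count between 3 and 10.

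These counts against t0 depended on the gap between the 2 coi1 30 min libraries, because all times share 1 estimate of each gene's spread. For the other times against t0 only replicate 2 of 30 min was left out, and leaving out replicate 1 instead was not run. Without that library the log2 differences at the other times were the same and more passed. The share of all genes called is not given for the fits of this paragraph. The calls listed therefore show only how they depend on the 30 min libraries. At 1 h 7 genes were then called, BAM3 and BAM5 higher and SEX1, PWD, SEX4, ISA3 and DPE1 lower. At 2 h 4 were called, BAM3 and BAM5 higher and PWD and DPE1 lower. SEX4, BAM3, BAM5 and DPE2 were higher at 4 h, and those 4 and ISA3 at 8 and 12 h. At 30 min BAM3 was then higher (log2 1.61, adjusted p = 0.00121). Without coi1 30 min replicate 1 instead, 7 genes were lower at 30 min, by log2 -2.57 to -5.22, so the 30 min result rests on which of its 2 libraries is used.

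Of the 10 genes 5 held a searched element in the 300 bases before their annotated start, and the 4 of these windows that overlap no other gene are shown here. SEX4, whose difference between late and middle times lay between those of ISA3 and PWD, held none of the searched elements. The sequences were read from the RefSeq genome TAIR10.1, 5′ to 3′ in the direction of the gene. Capitals mark the evening element AAAATATCT (AGATATTTT on the other strand) and the CCA1-binding site AAAAATCT (AGATTTTT), both known as binding sites of the morning clock proteins CCA1 and LHY, and the G-box CACGTG, known as a site of bHLH and bZIP factors.
PWD (TAIR10.1, chr5:9261179-9261478, plus strand): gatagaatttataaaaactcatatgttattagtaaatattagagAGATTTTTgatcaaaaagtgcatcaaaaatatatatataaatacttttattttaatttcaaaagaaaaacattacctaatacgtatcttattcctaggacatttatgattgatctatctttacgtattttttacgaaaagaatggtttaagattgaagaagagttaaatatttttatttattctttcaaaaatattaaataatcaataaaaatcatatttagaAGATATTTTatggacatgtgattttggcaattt
ISA3 (TAIR10.1, chr4:5783609-5783908, plus strand): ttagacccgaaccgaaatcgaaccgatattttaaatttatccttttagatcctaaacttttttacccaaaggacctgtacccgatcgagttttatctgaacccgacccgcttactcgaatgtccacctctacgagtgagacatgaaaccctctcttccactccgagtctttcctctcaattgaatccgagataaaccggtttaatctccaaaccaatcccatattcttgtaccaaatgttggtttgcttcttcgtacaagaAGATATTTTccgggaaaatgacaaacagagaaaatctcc
BAM5 (TAIR10.1, chr4:8669527-8669826, minus strand): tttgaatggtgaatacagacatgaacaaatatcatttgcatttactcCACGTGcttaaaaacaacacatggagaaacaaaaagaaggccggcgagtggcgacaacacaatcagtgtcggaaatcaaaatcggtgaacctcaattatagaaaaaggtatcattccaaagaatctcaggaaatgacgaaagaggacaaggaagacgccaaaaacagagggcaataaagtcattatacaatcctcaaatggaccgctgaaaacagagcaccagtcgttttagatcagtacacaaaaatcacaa
DPE1 (TAIR10.1, chr5:25928880-25929179, minus strand): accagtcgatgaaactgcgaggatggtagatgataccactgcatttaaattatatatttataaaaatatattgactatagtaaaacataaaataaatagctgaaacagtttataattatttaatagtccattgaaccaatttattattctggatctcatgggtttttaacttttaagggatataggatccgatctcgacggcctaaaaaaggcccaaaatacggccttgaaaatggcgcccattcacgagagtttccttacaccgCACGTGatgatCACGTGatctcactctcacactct
An evening element stood 33 to 25 bases before the start of PWD and 39 to 31 bases before that of ISA3, on the opposite strand in both. It was in 2 of the 10 windows and in 2.788% of 27443 windows of the same length. The CCA1-binding site was in 2 windows, of PWD and of DPE2 (the latter not shown), and in 7.94% of all. The G-box was in 2 windows, once in BAM5 and at 2 places in DPE1, and in 7.087% of all. The element TATCCA was in none of the 10 and in 16.157% of all. Both strands were searched, and the motifs marked do not overlap each other in the 4 windows. A match is a description of letters, and binding was not measured.

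SEX1 and PWD encode the dikinases: SEX1 phosphorylates glucan chains of the granule, and PWD adds further phosphate to chains that SEX1 has primed. PWD measured 154, 173, 168, 92.4, 173, 139.8, 205 and 174 TPM in the WT libraries from t0 to 12 h. PWD in coi1 replicate 1 measured 180.1, 206, 185, 11.3, 24.8, 91.7, 226 and 179 TPM over the same times, and in replicate 2 it measured 190.4, 192, 4.24, 52.4, 89.5, 88.8, 220.3 and 169 TPM. Within each coi1 pair at 1 and 2 h replicate 1 was the lower, and all 4 of these libraries lay below every WT library. PWD at 8 and 12 h was close to its t0 level in coi1 (log2 0.27 ± 1.3 and -0.09 ± 1.3), an error that includes the spread of the 30 min pair. The SEX1 levels in WT ran from 131 TPM at 1 h through a median of 290.2 to 630.3 at 4 h, and those in coi1 from 12.4 TPM at 30 min replicate 2 through 378 to 629 at 8 h. Both coi1 libraries of SEX1 lay above WT at 4 times and below it at 1, and the F test over all times did not call it (limma adjusted p = 0.405).

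SEX4, the phosphatase that removes glucan phosphate, and ISA3, the isoamylase that cuts the branch points of short glucans, had the most similar profiles of the 45 pairs. SEX4 measured 155, 157, 146, 103, 678, 391, 558 and 582 TPM in the WT libraries from t0 to 12 h. SEX4 in coi1 replicate 1 measured 119.7, 162, 166, 27.8, 93.6, 272, 544 and 568 TPM over the same times, and in replicate 2 it measured 131, 146, 7.40, 70.6, 155, 259, 520.3 and 628 TPM. Its 4 coi1 libraries at 8 and 12 h were all above its other 12 coi1 libraries. At 2 h the WT library, which was most like WT 12 h, was far above both coi1 libraries.

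ISA3 had the widest range in coi1 on the log2(TPM + 1) scale. ISA3 measured 95.2, 91.9, 94.7, 65.4, 628, 382, 593 and 495 TPM in the WT libraries from t0 to 12 h. ISA3 in coi1 replicate 1 measured 80.05, 102, 109, 6.69, 41.9, 184, 649.8 and 655 TPM over the same times, and in replicate 2 it measured 87.8, 96.3, 1.28, 29.97, 93.9, 163, 520.1 and 685 TPM. All coi1 libraries at 8 and 12 h were higher than every coi1 library of an earlier time. The log2 differences of 12 h from t0 were 2.98 ± 1.34 for ISA3 and 2.25 ± 1.01 for SEX4, neither called in the 16-library fit (limma adjusted p = 0.148 and 0.149). Both passed without coi1 30 min replicate 2 (0.0027 and 0.00124). Across the 16 genotype and time groups SEX4 and ISA3 had r = 0.995, a description over groups that share libraries and times.

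BAM3, the main chloroplast β-amylase of leaves at night, had the highest mean level of the 10 in both genotypes. It made up between 14.5% and 66.0% of their summed TPM in coi1, and between 15% and 53.4% in WT. BAM3 measured 311, 220.3, 387, 767, 2511, 1177, 1991 and 2458 TPM in the WT libraries from t0 to 12 h. BAM3 in coi1 replicate 1 measured 263, 274, 739, 695, 474, 334, 1624 and 2220.1 TPM over the same times, and in replicate 2 it measured 222, 265, 276, 692, 575, 350.3, 1591 and 2627 TPM. The coi1 libraries at 1 h exceeded those at t0, the 4 h pair lay between, and all 4 at 8 and 12 h were above the rest. In WT the 2 h library was already high, but that 1 library was most like WT 12 h. BAM3 was higher than at t0 by log2 1.52 ± 0.34 at 1 h, 1.11 ± 0.34 at 2 h, 2.73 ± 0.34 at 8 h and 3.31 ± 0.34 at 12 h (limma adjusted p = 0.00833, 0.038, 0.000578 and 0.000103). The 2 h call was lost without either t0 or either 2 h library of coi1 (adjusted p from 0.0822 to 0.166) and with no expression filter (0.051), and the 1 h call without coi1 t0 replicate 2 (0.0566). BAM3 overlaps the locus AT4G06665 on the other strand, which reached 4515 TPM and followed it with r = 0.998. The strand setting of the counting is not given in the sources used here, so the levels of BAM3 and that locus are uncertain and cannot be told apart.

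BAM1, a chloroplast β-amylase known from guard cells and from stressed leaves, took a course of its own. BAM1 measured 25.4, 62.3, 187, 108, 97.2, 9.52, 54.5 and 92.1 TPM in the WT libraries from t0 to 12 h. BAM1 in coi1 replicate 1 measured 79.96, 126, 81.02, 53.1, 22.6, 13.8, 30.8 and 67.4 TPM over the same times, and in replicate 2 it measured 19.9, 65.3, 60.9, 33.98, 12.5, 14.4, 46.03 and 91.8 TPM. It was lowest at 4 h in WT and in the coi1 mean, a time at which SEX4 and ISA3 in WT were above their t0 levels. The F test over the coi1 times called it (limma adjusted p = 0.0158), and no time against t0 did. Its t0 replicates were 80.0 and 19.9 TPM, and the calls turned on them. Without coi1 t0 replicate 1 BAM1 was higher at 30 min and 12 h (log2 1.77 and 1.93; adjusted p = 0.0411 and 0.0229), and without coi1 t0 replicate 2 it was lower at 2 and 4 h (log2 -2.18 and -2.42; 0.014 and 0.0142). Guard cell markers summed to 254 to 619.6 TPM in coi1 and to 305 to 605 TPM in WT, and their part in the result was not tested.

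AMY3, a chloroplast α-amylase, and DPE1, which joins and splits short glucans in the chloroplast, were not called in any fit of all libraries. AMY3 ran from 90.4 TPM at 1 h through a median of 176 to 257 at 4 h in WT, and from 32.9 TPM at 30 min replicate 2 through 216 to 290.2 at 8 h in coi1. DPE1 ran from 49.2 TPM at 12 h through 65.2 to 103 at 10 min in WT. In coi1 it ran from 2.15 TPM at 30 min replicate 2 through 60.4 to 121 at 10 min, with 9.42 and 42.6 at 1 h. Neither gene was called at any time against t0 or over all times (limma adjusted p = 0.475 for AMY3 and 0.36 for DPE1). DPE1 was alone among the 10 in having its highest WT and its highest coi1 library at 10 min.

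DPE2, the cytosolic enzyme that processes maltose exported from the chloroplast, was higher late. DPE2 measured 104, 136, 120.4, 59.96, 285, 383, 335 and 284 TPM in the WT libraries from t0 to 12 h. DPE2 in coi1 replicate 1 measured 119.5, 167, 123, 82.1, 142, 234, 415 and 286 TPM over the same times, and in replicate 2 it measured 141, 158, 20.98, 116, 239, 212, 339 and 309 TPM. The 4 coi1 libraries at 8 and 12 h were above the other 12 here as well. In WT all 4 libraries from 2 h on were above the 4 earlier ones. The F test called DPE2 over the coi1 times (limma adjusted p = 0.0286). SEX1, AMY3 and DPE2, and no others of the 10, had their highest coi1 library at 8 h and their highest WT library at 4 h.

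**Figure D2:**
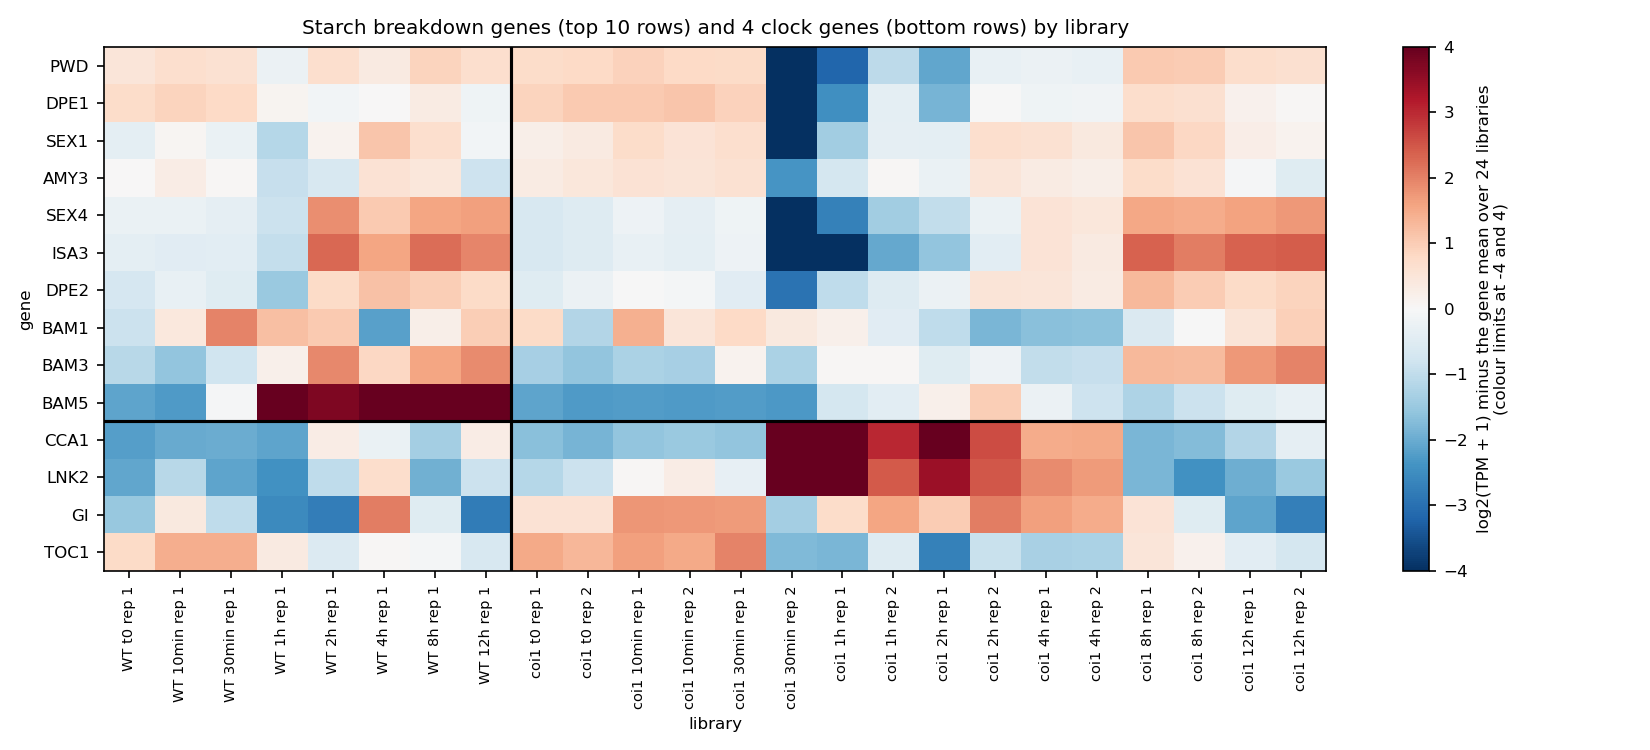
Each cell is log2(TPM + 1) of a gene in a library minus the gene's mean over the 24 libraries, with WT left of the vertical line and coi1 right of it. The coi1 libraries from 30 min replicate 2 to 2 h replicate 2 are blue for PWD, ISA3 and SEX4 and red for CCA1 and LNK2, which stay low in most WT libraries.

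Clock genes were measured in the same coi1 libraries. CCA1, a morning clock gene, was in the order of the times 0.64, 0.75, 0.72, 156, 94.4, 13.4, 0.45 and 1.3 TPM in coi1 replicate 1. In replicate 2 it was 0.43, 0.87, 154, 40.7, 30.9, 13.7, 0.54 and 3.02 TPM, and in WT it ran from 0.13 to 5.36 TPM. Its 4 highest libraries were both at 1 h, 30 min replicate 2 and 2 h replicate 1 of coi1, and these 4 were the lowest of all 24 for PWD, SEX4, ISA3 and DPE1. GI, an evening clock gene, ran from 1.52 to 68.2 TPM in coi1 and from 1.40 to 68.4 TPM in WT. The coi1 pair of 1 h measured 26.8 and 48.6 TPM and that of 2 h 32.8 and 68.2 TPM, beside 24.1 and 23.7 TPM in the t0 pair, with neither difference called (limma adjusted p = 0.608 and 0.416). Among the other evening genes ELF3 and PRR3 were lower than t0 at 1 h, by log2 -2.84 ± 0.92 and -4.66 ± 1.42 (0.0389 and 0.031), TOC1 was lower at 2 h, by -3.23 ± 0.97 (0.0347), and the median of the 7 was -2.62 at 1 h. At 1 and 2 h coi1 replicate 1 had more CCA1 and less PWD, ISA3, SEX4 and DPE1 than replicate 2. The 8 morning clock genes summed to 56.2 to 943 TPM in coi1 and 30.6 to 167 TPM in WT, and the 7 evening clock genes to 22.4 to 652 and 149 to 472 TPM. Between 8 and 12 h and 1 and 2 h in coi1, 5 of 8 morning genes were lower and none higher, and of 7 evening genes 2 (ELF3 and PRR3) were higher and 1 (GI) lower, beside 44.4% of all genes called, 32.6% higher and 11.8% lower. The part of the clock in the results was not tested, since clock state, time and single libraries cannot be told apart here. Of the sugar starvation genes, a mark of low carbon, 7 of 10 were lower at 1 h than at t0 in coi1 and 8 at 12 h. None was called higher (31.2% and 21.7% of all genes were called). Between 8 and 12 h and 1 and 2 h 5 were lower and 1 higher. Their summed TPM at t0, 1 h, 2 h, 8 h and 12 h was 1020.1, 32.4, 34.7, 38.98 and 14.9 in coi1 replicate 1, while replicate 2 had 1191.5, 116.8, 39.7, 35.96 and 14.5, and it went from 773 at t0 to 18.4 at 12 h in WT. One of them, ASN1, was 6.33 and 2.25 TPM at t0 and 56.0 TPM in coi1 30 min replicate 2. Leaf mesophyll markers were lower late in 3 of 6 cases and none was higher, and their part was not tested.

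BAM5 was high in WT from 1 h on and low in coi1. It encodes a β-amylase outside the chloroplast that is known from phloem, and its transcript responds to sugar. BAM5 measured 0.19, 0.06, 3.93, 105, 66.8, 168, 97.3 and 96.3 TPM in the WT libraries from t0 to 12 h. BAM5 in coi1 replicate 1 measured 0.19, 0.07, 0.08, 2.09, 4.86, 3.34, 1.17 and 2.60 TPM over the same times, and in replicate 2 it measured 0.05, 0.05, 0.03, 2.82, 8.97, 1.88, 1.81 and 3.15 TPM. The genotypes overlapped at t0 and 10 min, and from 30 min on both coi1 libraries lay below WT at all 6 times. At t0 and 10 min every library was at or below 0.19 TPM. Coi1 was lower by log2 -3.24 ± 0.52 over all times (limma adjusted p = 0.000839), and the differences at single times reached -5.58 at 4 h on the log2(TPM + 1) scale, which understates the change of low levels.

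BAM5 was the 1 gene of the 10 called between the genotypes, beside 12.5% of all 19757 genes. It was called without the 3 libraries of 2 h (log2 -3.26, adjusted p = 0.00443) and without coi1 30 min replicate 2 (-3.27, 0.00133). It lost the call with coi1 replicate 1 alone or replicate 2 alone (log2 -3.29 and -3.20; adjusted p = 0.0636 and 0.0775), and on t0, 10 min, 8 h and 12 h only (log2 -2.51; 0.168). BAM5 still changed within coi1: it was higher than at t0 by log2 1.62 ± 0.27 at 1 h, 2.77 at 2 h, 1.66 at 4 h, 1.14 at 8 h and 1.79 at 12 h (adjusted p = 0.00187, 0.000111, 0.00367, 0.0174 and 0.00112). The 8 h call was lost without either coi1 t0 library or coi1 8 h replicate 2 (0.0546 to 0.119), with only the 4 libraries compared (0.0538) and in an additive fit over 24 libraries (0.0558). These levels are near the expression minimum, and a filter of 5 TPM removes BAM5 from the coi1 fit. Of the 7 phloem markers 2 were lower in coi1 and none higher, with summed levels of 289.8 to 532 TPM in WT and 181 to 379 in coi1. Their part in the result was not tested.

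**Figure D3:**
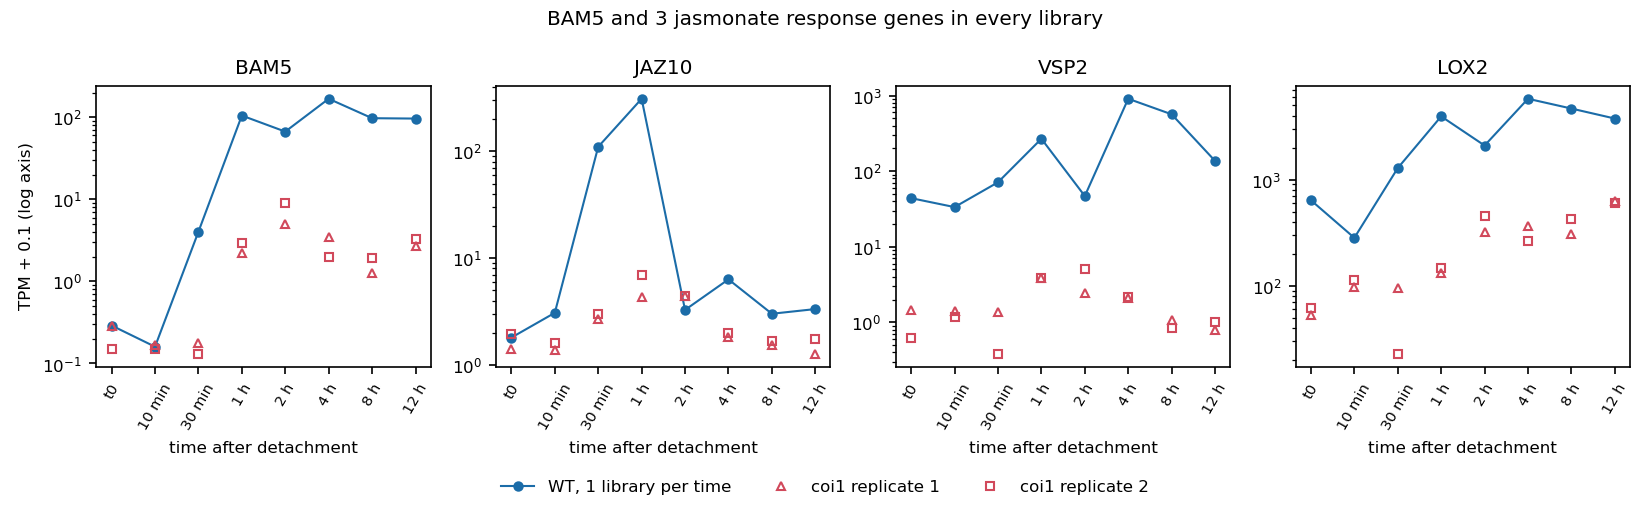
TPM + 0.1 (log axis) of BAM5 and of the jasmonate response genes JAZ10, VSP2 and LOX2 against time after detachment, in each WT library (blue) and each coi1 library (red). JAZ10 is back at 3.17 TPM in WT at 2 h, while BAM5 is at 66.8 TPM then and at 96.3 TPM at 12 h. The WT 2 h library was most like WT 12 h.

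Jasmonate response genes were measured in the same libraries. JAZ10, a repressor gene induced early by jasmonate, went in WT from 1.70 TPM before culture to 311 TPM after 1 h, and was at most 6.90 TPM in coi1. VSP2, a late jasmonate output gene, ran from 33.3 to 906 TPM in WT and from 0.28 to 4.96 TPM in coi1. Over all times JAZ10 was lower in coi1 by log2 -1.72 ± 0.51 and VSP2 by -5.74 ± 0.42 (limma adjusted p = 0.0357 and 3.49e-07). BAM5 in WT was at 66.8 TPM or more in all 5 libraries from 1 h to 12 h. The genes with the most similar profiles over the 16 groups were MBP2 (r = 0.965), CHAT (0.957) and AT3G28220 (0.954).

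The other 9 genes were not called between the genotypes. The log2 differences, coi1 minus WT over all times, were -0.82 ± 0.40 for SEX4 and -1.10 ± 0.55 for ISA3 (limma adjusted p = 0.18 and 0.189), and -0.55 ± 0.24 for BAM3 (0.142). The differences of SEX1, PWD, BAM1, AMY3, DPE1 and DPE2 lay between -0.77 and 0.19, with adjusted p from 0.27 to 0.982. Both coi1 libraries were below WT at 5 of 8 times for SEX4, BAM1 and BAM3, and above WT at 6 for AMY3. Without the 3 libraries of 2 h the differences of SEX4, ISA3 and BAM3 were -0.59, -0.79 and -0.30. The median of the 10 genes was log2 -0.54, beside -0.05 over all genes. Of 8 morning clock genes 3 were higher in coi1 and none lower (median log2 1.85). Of 7 evening clock genes 1 was higher and none lower (median -0.32), beside 12.5% of all genes called. Genotype and clock state cannot be told apart in these libraries, and the part of the clock was not tested. On t0, 10 min, 8 h and 12 h alone, ISA3 was at 0.08 and PWD at 0.15, and SEX1 was then called higher in coi1 (0.46, adjusted p = 0.0437). No gene of the 10 was called in the test of genotype by time course, which called 0.202% of all genes. At an unadjusted limma p below 0.05 it had BAM3 and BAM5, with adjusted p = 0.586 and 0.0955. The share of all genes below that unadjusted threshold is not given here. BAM5 was called there without WT t0 (0.0227) or without WT 1 h (0.0181).

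**Figure D4:**
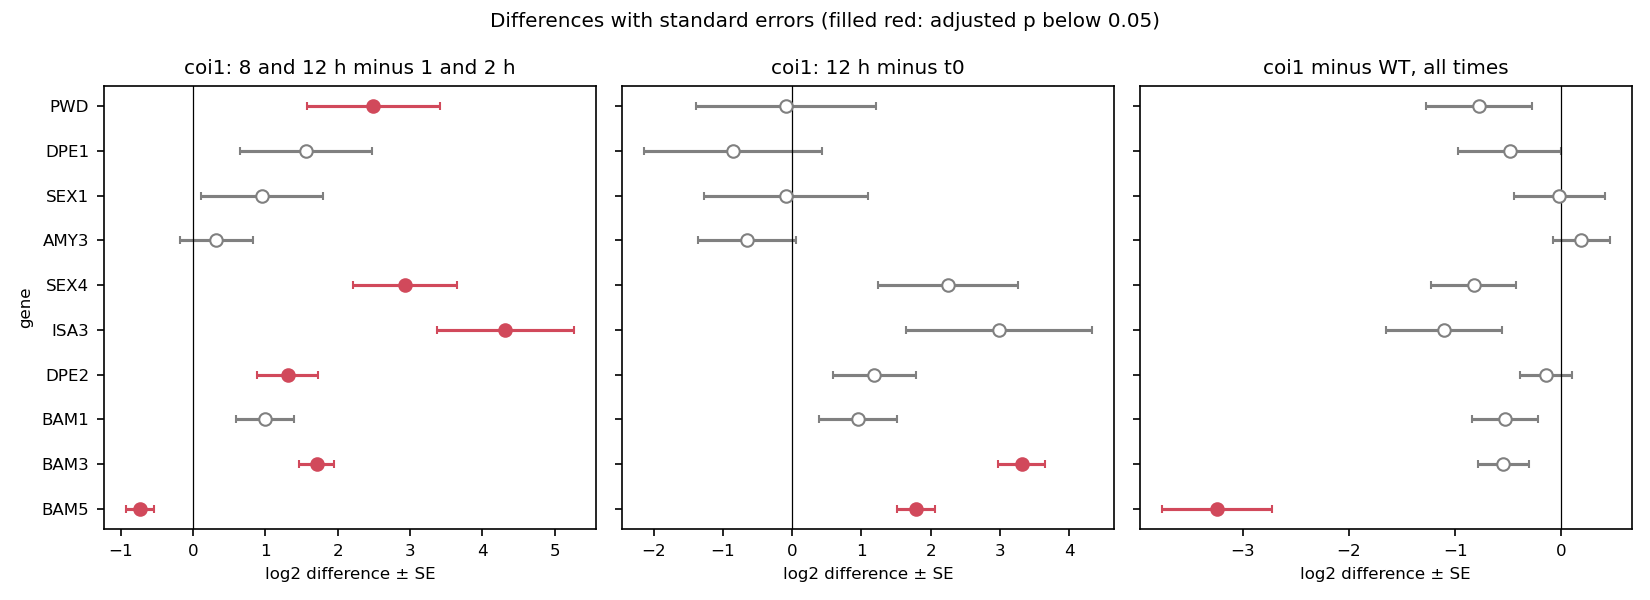
Log2 differences with standard errors (bars) for the 10 genes in 3 comparisons, with those at an adjusted p below 0.05 in filled red. ISA3, SEX4, PWD, BAM3 and DPE2 are to the right in the first panel, BAM3 and BAM5 in the second, and BAM5 alone is filled in the third, at -3.24.

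In WT, with 1 library at each time, the time course was tested as a smooth curve. It called none of the 10 and 0% of 18906 genes. At an unadjusted limma p below 0.05 there were 6 of the 10, SEX4, BAM1, BAM3, BAM5, ISA3 and DPE2, with the lowest adjusted p 0.0707 for BAM5. The share of all genes below that unadjusted threshold is not given here, so the count is no result about the 10. Without the WT 2 h library BAM3 was called (0.0406). As single-library values against t0 with no test, 1 of the 10 was at least 2-fold higher at 10 min, when 8.74% of all genes were at least 2-fold away in either direction. The count was 2 higher at 30 min (14.8% of all genes), 3 at 1 h (22.1%) and 6 at 2 h (16%). At 4 h 6 were higher and BAM1 was lower (19.6%), at 8 h 7 were higher (14.5%) and at 12 h 6 (16.7%). The median of the 10 from 10 min to 12 h was log2 0.15, 0.12, -0.61, 1.67, 1.41, 1.37 and 1.63, beside -0.15, -0.16, -0.17, 0.04, -0.01, 0.00 and 0.00 over all genes. ISA3 stood at log2 2.71 at 2 h, 1.99 at 4 h, 2.63 at 8 h and 2.37 at 12 h, and BAM3 at 3.01, 1.92, 2.67 and 2.98. All these values rest on 1 t0 library, and those at 2 h on the library that resembled 12 h.

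The 10 genes did not vary as 1 block. Of their 45 pairs 5 had r over 0.8 across the 16 groups, and the median r was 0.436. SEX4, ISA3 and DPE2 went together (0.885 to 0.995), PWD went with DPE1 (0.89), and SEX1 with DPE2 (0.869). BAM1 had its highest r, 0.21, with PWD. Among all genes with at least 10 TPM in a group, THIC, a thiamine synthesis gene, had r = 0.992 with PWD, and PHS2, a cytosolic glucan phosphorylase gene, had 0.961 with SEX1 and 0.955 with DPE2. HSK and DWA1 came next to ISA3 and SEX4, with r between 0.968 and 0.972. OEP16-1 came first for DPE2 (0.967), UGT80B1 for SEX1 (0.965), ALDH5F1 for DPE1 (0.966), PLA2-ALPHA for AMY3 (0.924) and AT5G66900 for BAM1 (0.909). These correlations describe groups that share libraries and times.

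Of 19 other genes listed with starch breakdown 18 were measured, and 10 were called between late and middle times in coi1. The list is broad, and some of its genes, such as LESV, do not encode breakdown enzymes. Between 8 and 12 h and 1 and 2 h 9 were higher and 1, LESV, was lower, with a median of log2 0.86, beside 44.4% of all genes called and 32.6% higher (median 0.18). The β-amylase genes BAM2 and BAM6 were higher by log2 2.29 ± 0.13 and 2.26 ± 0.25, the dikinase gene GWD2 (AT4G24450) by 2.08 ± 0.28, the maltose exporter gene MEX1 by 1.39 ± 0.41 and the hexokinase gene HXK1 by 0.98 ± 0.09 (limma adjusted p = 1.9e-06, 6.74e-05, 0.000194, 0.0195 and 1.86e-05). LESV, which promotes starch granule formation, was lower by -1.74 ± 0.51 (0.0179). Against t0 at 12 h 5 of the 18 were higher, BAM6, GWD2, BAM2, AMY2 and HXK1, by log2 2.26, 2.02, 1.78, 1.53 and 1.47, and the plastid glucose exporter gene PGLCT was lower by -0.84, beside 21.7% of all genes called. Between the genotypes 4 were lower in coi1 (BAM6 by -1.72 ± 0.23, MEX1 -0.85, BAM2 -0.81 and HXK1 -0.30) and LESV was higher (1.18; adjusted p = 0.000197, 0.0325, 0.0151, 0.0406 and 0.0357), beside 12.5% of all genes called.

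**Figure D5:**
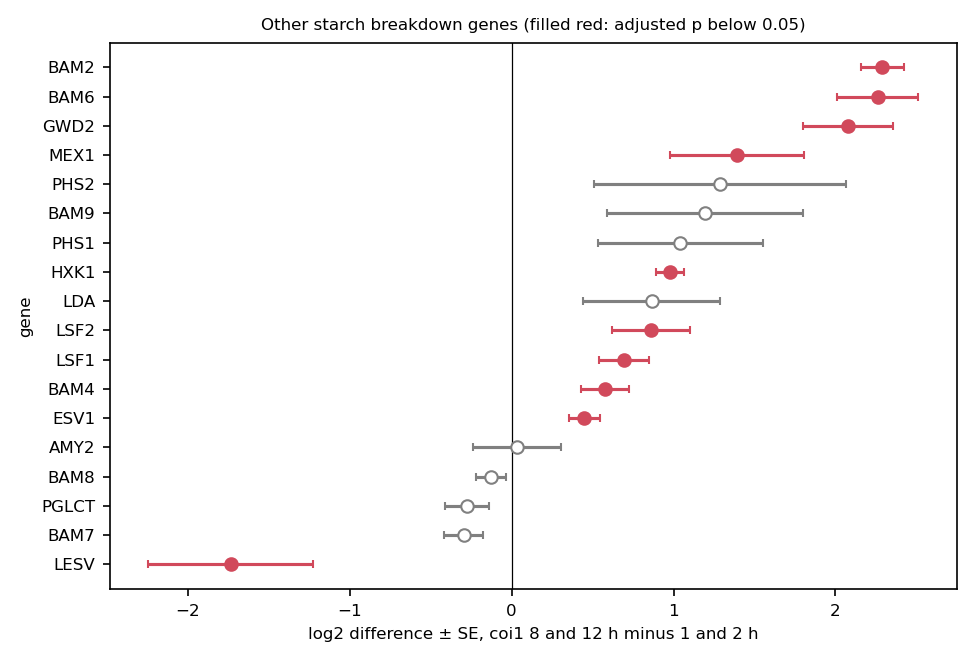
Log2 differences in coi1 between 8 and 12 h and 1 and 2 h, with standard errors, for the 18 other genes listed with starch breakdown that were measured, with those at an adjusted p below 0.05 in filled red. BAM2, BAM6 and GWD2 lie above 2 and LESV lies at -1.74.

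Among starch synthesis genes 9 of the 18 measured rose: they were higher in coi1 at 12 h than at t0 and none was lower, beside 21.7% of all genes called and 15.5% higher. GBSS1, which encodes the granule-bound starch synthase, was higher by log2 8.95 ± 1.5, GPT2, a plastid glucose 6-phosphate carrier gene, by 8.56 ± 0.38, and APL3, an ADP-glucose pyrophosphorylase subunit gene, by 4.41 ± 0.36 (limma adjusted p = 0.00205, 9.13e-07 and 2.16e-05). SS2, a starch synthase gene, was higher at 2 h by 1.95 ± 0.39 (0.00511). The summed TPM of the synthesis genes at 12 h was 4804 and 5373 in coi1 and 4559 in WT, and that of the 10 breakdown genes was 4559 and 5015 in coi1 and 4600.4 in WT.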

How the data were processed

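Total RNA of whole leaf explants was sequenced. The tools named in the submitters' processing notes are RSEM 1.3.2, STAR 2.7.2b and Trim Galore 0.5.0, and the build named is TAIR10. The annotation version, strand setting and filters are not given in the sources used here. The deposited values are TPM per gene by the authors, to 2 decimals, in 1 table per genotype, and each column sums to between 999999 and 1000001. TPM keeps no depth. Another 8 columns of WT matched no sample label and were not used.

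Levels were tested as log2(TPM + 1) with limma 3.58.1 in R 4.3.3 (empirical Bayes, trend). A gene needed 1 TPM or more in 2 libraries of the fit, and p-values had Benjamini-Hochberg adjustment over all genes tested and a threshold of 0.05. The coi1 fit had 8 time groups and 8 residual degrees of freedom. The WT curve was a natural spline with 3 degrees of freedom (4 residual). Genotype was a term beside time (15 residual), and genotype by time course a spline interaction (16 residual). The fits were tested on simulated data. The main fits did not pair samples by replicate number. Correlations of same-numbered deviations between times ran from -0.316 to 0.504 with a median of 0.001, and 7 of 28 were over 0.1. Pairing at some times may therefore remain.

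The 10 genes, the other lists and the alternatives (pseudocount, filter, scaling, trend, replicate block, left-out libraries, fewer libraries or times) were chosen with earlier results of these data known, and 4 alternatives after seeing the libraries of this report. Named genes were all 10, up to 6 other breakdown and 4 synthesis genes called against t0 by size of change, marks of genotype, clock and sugar state, and the 3 genes with the highest r to each member, of which some are printed. LOX2, LNK2, TOC1, ELF3, PRR3, LESV and MEX1 were named after their values were seen. Names and promoter windows came from RefSeq TAIR10.1, where 37390 of 37686 loci were found. The tables hold no coordinates.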

Additional observations from a re-analysis of the deposited data

How the results depend on the processing

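Counts below are of the 10 genes called. The share of all genes called in each alternative is not given beside them, so they show only how the calls depend on the fit. A sign change of a value called neither before nor after was not counted as a reversal. With no expression filter 1 was called at 2 h against t0. A filter of 5 TPM, under which BAM5 is not tested in coi1, gave 1 at 1 h, 1 at 2 h, 0 at 4 h, 1 at 8 h and 1 at 12 h. With only the 4 libraries compared, 7 were called at 4 h, 4 at 8 h and 6 at 12 h. With coi1 replicate 1 alone or replicate 2 alone 0 were called between the genotypes. On t0, 10 min, 8 h and 12 h only, the SEX1 difference between the genotypes was log2 0.46. It was counted as reversed, although the main value was near 0, at -0.02 ± 0.43 (SE), and not called. Leaving out single libraries gave against t0 0 genes at 10 min, at 30 min 0 to 7, after 1 h 1 to 7, after 2 h 1 to 4, after 4 h 1 to 4, after 8 h 1 to 5 and after 12 h 2 to 5. It gave 3 to 10 over all 8 coi1 times and 4 to 8 between late and middle times. It gave 0 to 1 in the WT time course. In the tests of genotype only WT libraries and coi1 30 min replicate 2 were left out in turn, and no other coi1 library. Leaving out WT libraries gave 1 each time between the genotypes and 0 to 1 for genotype by time course. The F test over all coi1 times fell to 3 (BAM1, BAM3 and BAM5) without coi1 1 h replicate 1 or any single 4, 8 or 12 h library, and rose to 10 without either 30 min library. Where a library was left out its time had 1 coi1 library, which was assumed to vary like the other times. The cause of these changes was not tested, beyond the fewer libraries or genes in each fit.

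With a replicate block 5 genes were called over all 8 coi1 times and 5 between late and middle times, where SEX4 (adjusted p = 0.051) and PWD (0.0619) were lost, and the block changed no other count. Depth is unknown for TPM, so the precision of low levels such as BAM5 in coi1 cannot be given.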
